A study of Caenorhabditis elegans with 2 samples.

Results

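The aminoacyl-tRNA synthetase genes of Caenorhabditis elegans were examined for binding of the nuclear hormone receptor NHR-237 at their promoters. The members are the protein-coding genes whose name in the WBcel235 annotation is a single letter followed by ars-1 or ars-2. There are 31 of them among 19973 protein-coding genes, 20 whose name ends in ars-1 and 11 whose name ends in ars-2, called ars-1 and ars-2 genes below. All 31 have a tRNA ligase or synthetase in their RefSeq product name. The data are ChIP-seq peak lists from whole L1 larvae of pooled sex, strain OP228, whose genotype the labels give as unc-119(ed3) III; wgIs228. The strain expresses NHR-237 fused to eGFP from an inserted transgene. The promoter that drives the fusion is not given in the sources used here. There was 1 group of 2 biological replicates and no contrast between conditions. Per the labels the immunoprecipitated protein was the tagged one, but the antibody field has nhr-237. The larvae were taken whole, so a signal is a mean over all their cells. No untagged strain or input was analysed here.

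Aminoacyl-tRNA synthetases join each amino acid to the tRNAs that carry its anticodons, a step on which the accuracy of translation depends. They fall into a pair of structurally unrelated classes, named 1 and 2. Cytosol and mitochondria both need charged tRNAs, and animals use separate genes for most amino acids, with some genes serving both compartments. In worms ars-1 is commonly the name of the cytosolic enzyme and ars-2 that of the mitochondrial enzyme. The 31 genes covered all 20 amino acids. Genes of both kinds were present for 11 amino acids, and an ars-1 gene alone for 9. RefSeq product names gave no compartment for 17 genes. By those names 9 of the ars-1 genes were cytoplasmic and 3 of the ars-2 genes mitochondrial. The alanine pair went the other way, since aars-1 is named mitochondrial and aars-2 cytoplasmic. The ending was therefore used as a name and not as proof of the compartment.

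The sequences under 4 of the summits are printed first, because the positions below refer to them. They are RefSeq bases of WBcel235 (ce11), read 5′ to 3′ on the minus strand, which is the strand of each of these synthetase genes. Capitals mark the 21 bases centred on the summit, the point of highest signal in a region. All 4 stretches lie outside annotated protein-coding genes. The kars-1 stretch, chrII:7072684-7072983, is 300 bases long and lies upstream of the lysine gene.
kars-1: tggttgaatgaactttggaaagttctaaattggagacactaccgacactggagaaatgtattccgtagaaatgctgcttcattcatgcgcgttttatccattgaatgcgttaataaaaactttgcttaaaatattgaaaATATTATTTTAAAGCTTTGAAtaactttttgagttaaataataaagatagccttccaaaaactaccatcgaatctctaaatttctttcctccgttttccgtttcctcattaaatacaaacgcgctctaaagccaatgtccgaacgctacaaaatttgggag
The mars-1 stretch, chrIV:11635655-11635954, has 300 bases upstream of the methionine gene.
mars-1: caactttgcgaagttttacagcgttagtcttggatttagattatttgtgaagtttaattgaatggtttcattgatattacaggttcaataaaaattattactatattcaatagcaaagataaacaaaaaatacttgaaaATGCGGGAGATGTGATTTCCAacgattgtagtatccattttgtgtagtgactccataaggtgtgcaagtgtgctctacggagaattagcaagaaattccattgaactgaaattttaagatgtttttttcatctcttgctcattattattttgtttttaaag
The ears-2 stretch, chrIV:390469-390559, has 91 bases and is all of the sequence between ears-2 and its divergent neighbour uncp-18.
ears-2: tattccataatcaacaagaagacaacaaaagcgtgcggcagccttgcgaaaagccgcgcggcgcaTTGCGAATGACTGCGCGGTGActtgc
The rars-1 stretch, chrIII:4918009-4918234, has 226 bases and lies directly upstream of rpb-8, the gene that precedes rars-1 on the same strand.
rars-1: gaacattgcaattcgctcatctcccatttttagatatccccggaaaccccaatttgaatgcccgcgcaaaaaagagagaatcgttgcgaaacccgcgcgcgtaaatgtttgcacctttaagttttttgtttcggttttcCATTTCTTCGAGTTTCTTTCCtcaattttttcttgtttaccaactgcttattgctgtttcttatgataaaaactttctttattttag
The ears-2 stretch, at 91 bases the shortest, had a GC content of 53.8%, against 33.7% for kars-1, 30.0% for mars-1 and 37.6% for rars-1. In 300 bp around the summit ears-2 had 37.7% and rars-1 38.0%, so the high value belongs to the short stretch alone.

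A gene was counted as having a summit when a summit lay between 1000 bp upstream and 200 bp downstream of any of its annotated transcript starts. Peaks were ranked by the authors' signal value within their own list, rank 1 being strongest. The list that passed the irreproducible discovery rate (IDR) procedure, which compares the ranks of regions between replicates, has 970 regions. These were also the 970 strongest of the 7699 regions in the pooled list. Membership thus equals a cut on pooled signal, and an IDR region need not rank alike in both replicates. For eef-1B.2, a gene with an IDR summit, the strongest promoter region ranked 3483 in replicate 1 and 322 in replicate 2. The replicate 1 list has 21745 regions and the replicate 2 list 25720, and both include weak regions. Their read depth is unknown.

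An IDR summit lay in the promoter of 4 of the 31 synthetase genes (12.9%, 95% exact Clopper-Pearson interval 3.63 to 29.8), against 4.66% of all protein-coding genes. These were the lysine gene kars-1, the methionine gene mars-1, the glutamate gene ears-2 and the phenylalanine gene fars-1. The interval includes the share of all genes, so no difference from that share is claimed. The ars-1 genes had 3 of 20 (15.0%, 3.21 to 37.9) and the ars-2 genes 1 of 11 (9.09%, 0.230 to 41.3). These intervals overlap over most of their length. Class 1 enzymes had 2 of 15, ears-2 and mars-1, and class 2 enzymes 2 of 16, fars-1 and kars-1. The intervals cover counting error only. The members were chosen with earlier results of these data known, and no test was made over them.

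**Figure D1:**
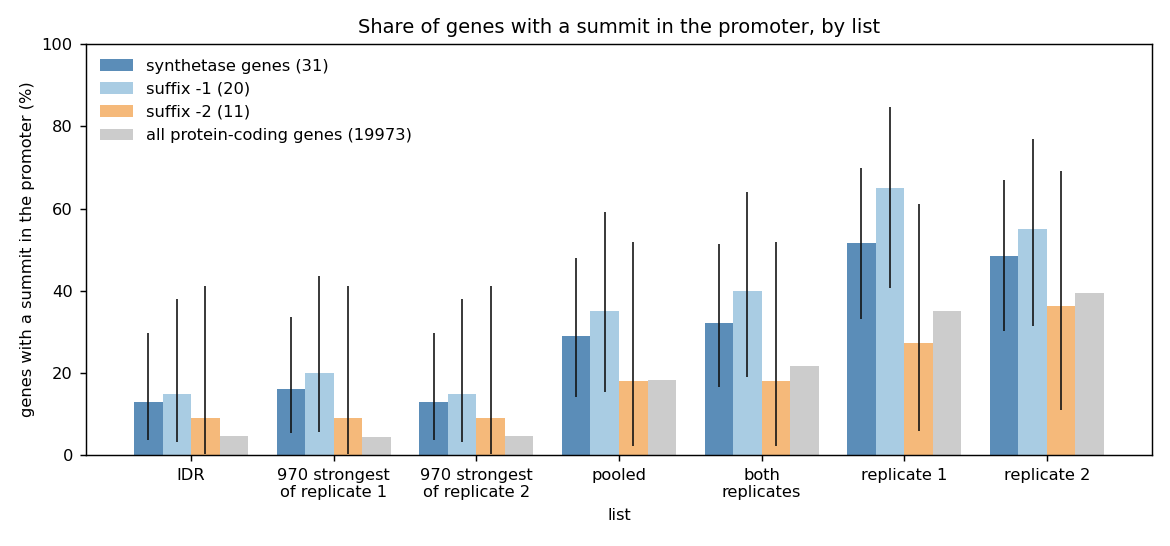
Share of genes with a summit in the promoter (vertical axis, percent) in each list or list cut to 970 regions (horizontal axis), for all 31 synthetase genes, the 20 ars-1 genes, the 11 ars-2 genes and all 19973 protein-coding genes. Lines are 95% exact intervals. In each list the ars-1 genes stand above the ars-2 genes, with overlapping intervals. In the replicate 1 list the shares are 65.0% of ars-1 genes and 27.3% of ars-2 genes, against 35.0% of all genes. This order depends on the naming. Grouped by RefSeq compartment (not drawn), mitochondrial genes had the higher share in each list, also with overlapping intervals. In the pooled list these were 3 of 4 mitochondrial and 3 of 10 cytoplasmic genes, with 17 genes given no compartment.

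The summit of kars-1, which encodes lysyl-tRNA synthetase, had the highest signal of the family in the IDR, pooled and replicate 2 lists, while fars-1 was slightly higher in replicate 1. Its IDR region on chromosome II ran from 7072652 to 7073015 with the summit at 7072834, in intergenic sequence 419 bp upstream of the start of kars-1. The signal was 37.3 in replicate 1 (rank 622) and 42.0 in replicate 2 (rank 320), and 81.4 in the IDR list (rank 400). The summits of the replicates lay 5 and 1 bp from the pooled summit. The −log10 q value was 2.93, the ceiling of the IDR list, which 427 of its 970 regions shared. The same summit lay in the promoter of kat-1, which is transcribed in the opposite direction and encodes a thiolase of fatty acid oxidation, 980 bp upstream of its start. Of these starts that of kars-1 was the nearer.

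The mars-1 gene encodes methionyl-tRNA synthetase, which also charges the initiator tRNA of translation. Its region on chromosome IV ran from 11635623 to 11635986, with the summit at 11635805, 318 bp upstream of mars-1 in intergenic sequence. The signal was 32.3 in replicate 1 (rank 814) and 39.4 in replicate 2 (rank 361), and 75.6 in the IDR list (rank 465). Both replicate summits lay within 7 bp of the pooled summit. Each replicate list held a further weak summit in this promoter, at 861 bp upstream in replicate 1 (signal 11.4) and at 948 bp upstream in replicate 2 (signal 10.4), nearer to the divergent gene F58B3.6. The pooled summit lay 843 bp upstream of F58B3.6.

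The only ars-2 gene with an IDR summit was ears-2, whose product RefSeq names a mitochondrial nondiscriminating glutamyl-tRNA synthetase, an enzyme type that puts glutamate on the tRNAs of both glutamate and glutamine. Its region on chromosome IV ran from 390302 to 390665, with the summit at 390484, in the 91 bp between ears-2 and uncp-18. The summit was 16 bp upstream of ears-2 and 76 bp upstream of uncp-18, and so in the promoters of both. The signal was 34.7 in replicate 1 (rank 704) and 35.3 in replicate 2 (rank 479), and 69.1 in the IDR list (rank 560). The replicates placed the summit differently: replicate 1 gave the pooled position, and replicate 2 a position 80 bp away, 64 bp inside ears-2.

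The fars-1 gene, which encodes a subunit of phenylalanyl-tRNA synthetase, was counted through a summit far from its start. The region on chromosome I ran from 6215368 to 6215731, with the summit at 6215550, 865 bp upstream of fars-1. It was nearer to rbm-5, a divergent gene for an RNA-binding protein, at 177 bp upstream of that start, and it lay inside T08B2.15, in an exon, within the 3′ UTR. The signal was 37.6 in replicate 1 (rank 615) and 32.7 in replicate 2 (rank 569), and 68.3 in the IDR list (rank 580). The replicate summits lay 6 and 0 bp from the pooled summit. The position was thus steady between replicates, while the assignment to fars-1 depends on the width of the promoter window.

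**Figure D2:**
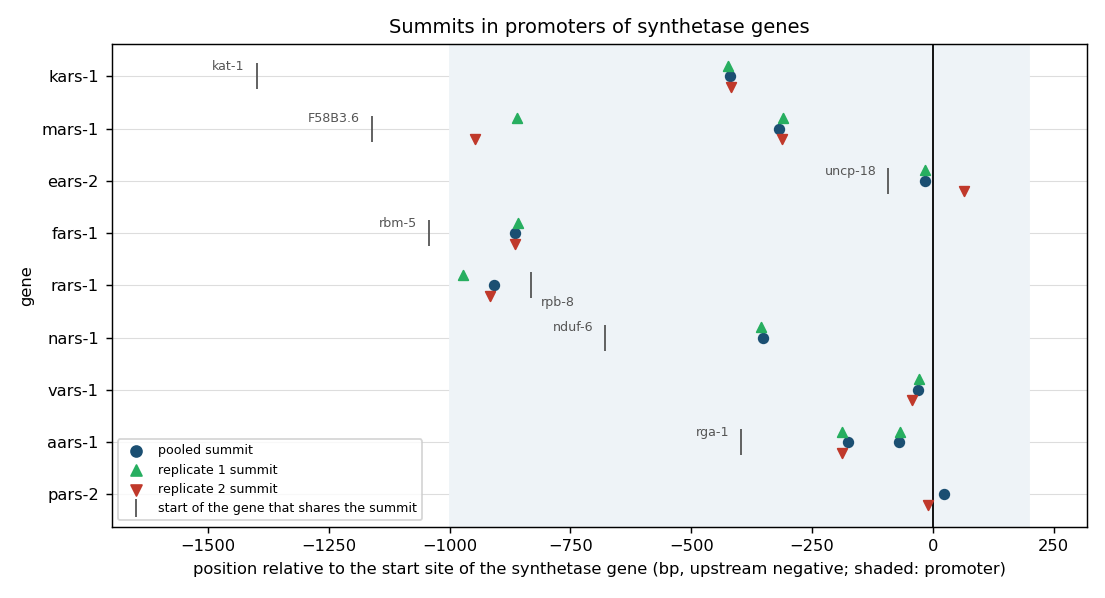
Summits of the pooled list and of each replicate list in the promoters of the 9 synthetase genes with a pooled summit, strongest at the top. The horizontal axis is the distance in bp from the start of the synthetase gene (for each summit the nearest start whose promoter holds it), with the promoter shaded. Ticks mark the start of the neighbouring gene that shares the strongest pooled summit. The strongest kars-1, mars-1 and fars-1 summits of both replicates fall within 7 bp of the pooled summit (mars-1 has a further weak summit in each), and the ears-2 summit of replicate 2 falls 80 bp from it.

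Within the IDR list the synthetase summits were of middling strength. Among the 931 protein-coding genes with an IDR summit, ordered by signal, kars-1 was number 411, mars-1 484, ears-2 563 and fars-1 586. The median signal was 72.4 over the 4 synthetase genes and 76.9 over all 931 genes, and 1 of the 4 was above 76.9. The pooled list, without the IDR cut, gave a median of 51.2 over 9 synthetase genes and 34.1 over all 3679 genes with a pooled summit, with 7 of the 9 above. In the replicate lists the medians lay close together: 13.4 over 16 synthetase genes and 13.8 over all genes in replicate 1, and 14.9 over 15 synthetase genes and 13.2 over all genes in replicate 2. Genes enter these medians only if they have a summit in that list.

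**Figure D3:**
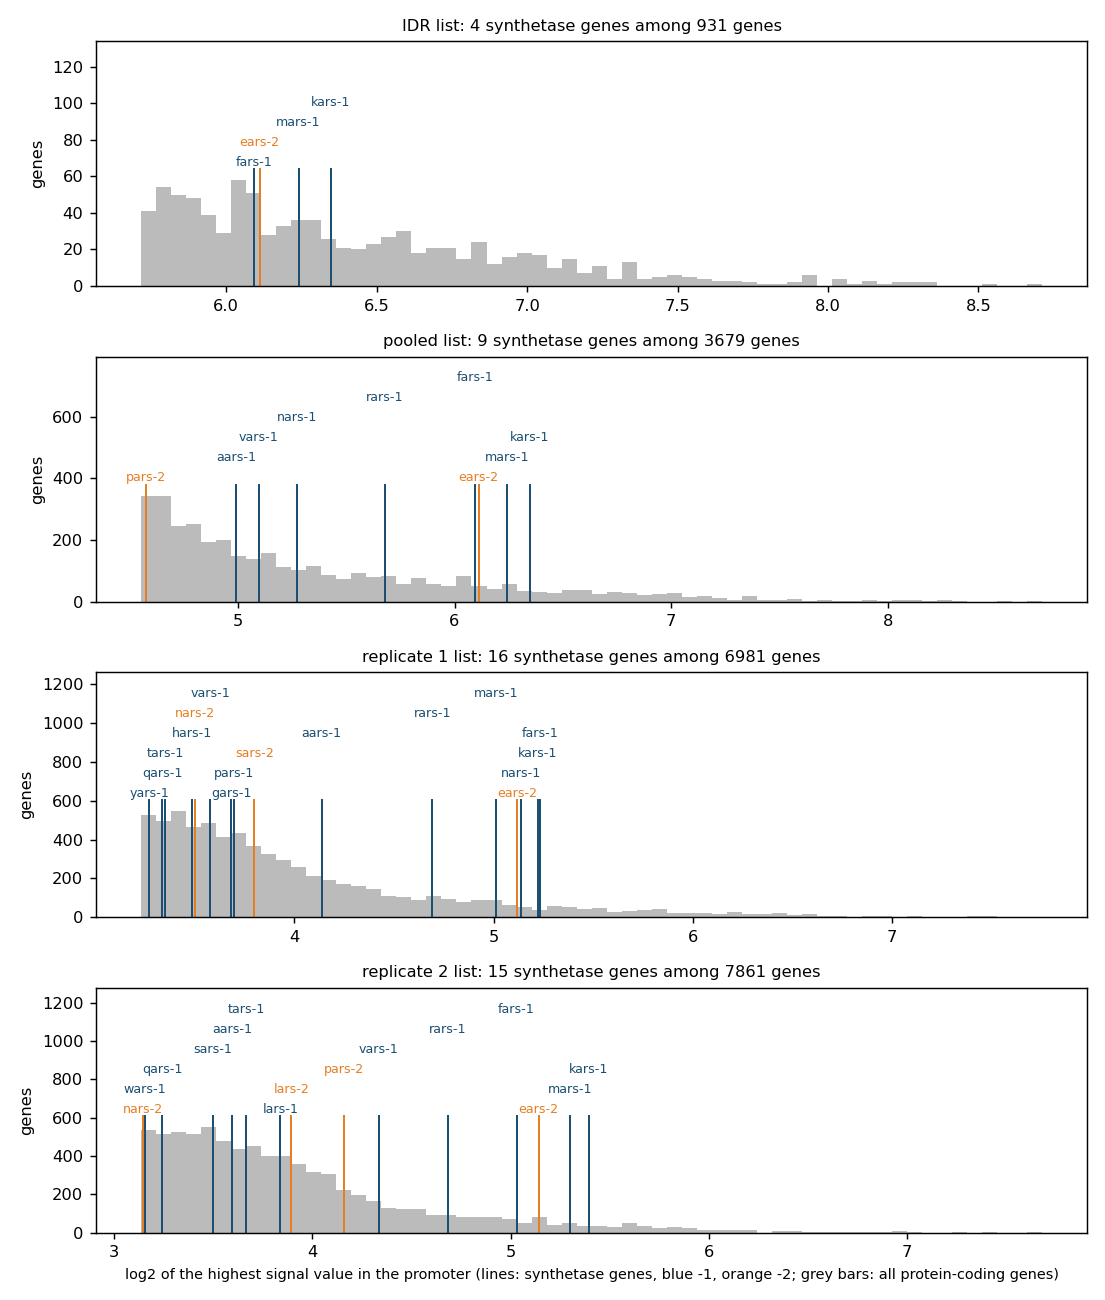
Highest signal of a region with its summit in the promoter, on a log2 axis, for synthetase genes (lines, blue for ars-1 and orange for ars-2) and all protein-coding genes (grey histogram), in the IDR, pooled, replicate 1 and replicate 2 lists. The IDR genes (fars-1, ears-2, mars-1 and kars-1) lie to the right in every panel but that of the IDR list, where they fall in the lower and middle part of the histogram.

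The pooled list had a summit at the promoters of 9 of 31 synthetase genes (29.0%, 14.2 to 48.0), against 18.4% of all protein-coding genes. Besides the IDR genes they were rars-1, nars-1, vars-1, aars-1 and pars-2. The pooled summits fell on 7 of 20 ars-1 genes (35.0%) and 2 of 11 ars-2 genes (18.2%). The interval of all 31 again includes the share of all genes.

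Arginyl-tRNA synthetase, encoded by rars-1, stood just outside the IDR list. Its pooled region on chromosome III, 4917903 to 4918266, had a signal of 51.2 at rank 1022. The weakest IDR region had 52.6 at rank 970, and 51 pooled regions lay between them. The signal was 25.9 in replicate 1 (rank 1288) and 25.7 in replicate 2 (rank 1038), so that both replicates placed it just past rank 970 as well. The summit at 4918085 lay 908 bp upstream of rars-1 but 77 bp upstream of rpb-8, which encodes a subunit of the RNA polymerases. The rpb-8 gene fills most of the stretch between the summit and rars-1, on the same strand.

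The nars-1 gene, for asparaginyl-tRNA synthetase, had a strong region in replicate 1 alone. The pooled signal was 38.7 (rank 1784) at a summit 352 bp upstream of nars-1 and 326 bp upstream of nduf-6, a divergent gene for a subunit of respiratory complex I. Replicate 1 had a region there of signal 35.2 (rank 690), similar to that of ears-2. Replicate 2 had no region in this promoter, and its nearest summit was 1021 bp from that of replicate 1, with a signal of 9.67 at rank 21257.

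Valyl-tRNA synthetase, encoded by vars-1, had a pooled summit 30 bp upstream of its start (signal 34.2, rank 2412), with 11.9 in replicate 1 (rank 11616) and 20.2 in replicate 2 (rank 2054). No other promoter held this summit. The aars-1 gene, for an alanyl-tRNA synthetase, had pooled summits 176 bp upstream (signal 31.9, rank 2950) and, in its 5′ UTR, 70 bp upstream of a second annotated start (26.5, rank 5087). The stronger of these had 17.6 in replicate 1 (rank 3386) and 12.1 in replicate 2 (rank 11988), and it also lay 221 bp upstream of rga-1. The weakest pooled summit was that of pars-2, for a prolyl-tRNA synthetase, 23 bp inside the gene (signal 23.9, rank 7254). It had no region in replicate 1 and a region of signal 17.9 in replicate 2 (rank 3193).

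The replicates were then compared without the IDR selection. In the replicate 1 list 16 of 31 synthetase genes had a summit (51.6%, 33.1 to 69.8), against 35.0% of all protein-coding genes. In the replicate 2 list there were 15 of 31 (48.4%, 30.2 to 66.9), against 39.4% of all genes. Both lists gave 10 genes (32.3%, 16.7 to 51.4), against 21.7% of all genes. Each of these intervals includes the share of all genes. Of the synthetase genes of replicate 1, 62.5% were also in replicate 2, against 62.0% over all genes. In the other direction the shares were 66.7% of synthetase genes and 55.1% of all genes.

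The 10 genes with a summit in both replicate lists were the 4 IDR genes with rars-1, vars-1, aars-1, tars-1, qars-1 and nars-2. The last 3, for threonine, glutamine and asparagine, had weak regions in both. The tars-1 signal was 10.2 in replicate 1 and 12.7 in replicate 2, 421 and 409 bp upstream of tars-1 and nearer to kel-1. The qars-1 signal was 10.1 in replicate 1 and 9.47 in replicate 2, and that of nars-2 was 11.3 in replicate 1 and 8.85 in replicate 2. In qars-1 and nars-2 the replicate summits were at different places in the promoter, 84 bp inside the gene and 542 bp upstream in the case of nars-2. A summit in both lists was therefore not always the same site.

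The replicates were also compared at equal list length. Among the 970 strongest regions of replicate 1, summits fell on 5 of 31 synthetase genes (16.1%, 5.45 to 33.7), against 4.47% of all protein-coding genes. These were the 4 genes of the IDR list and nars-1. Among the 970 strongest of replicate 2 they fell on 4 of 31 (12.9%, 3.63 to 29.8), against 4.63% of all genes, and these were the 4 IDR genes. The interval of replicate 1 lies above the share of all genes, and that of replicate 2 includes it. The former rests on nars-1, which had no region in replicate 2. With 4 of 31 the lower bound is 3.63%, below the share of all genes. No difference from that share is claimed in either replicate. The 4 shared genes made up 80.0% of the set of replicate 1 and all of the set of replicate 2. Over all genes the 633 shared genes made up 71.0% of 892 and 68.5% of 924. The IDR list was itself made from both replicate lists, so that these sets are not independent of it.

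**Figure D4:**
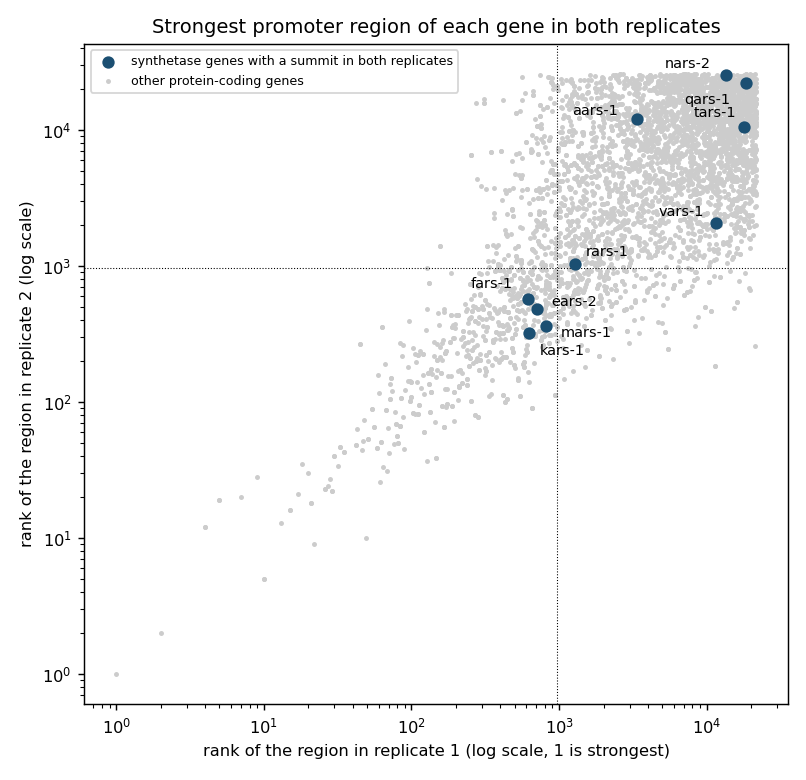
Rank of the strongest promoter region of each protein-coding gene in replicate 1 (horizontal) and replicate 2 (vertical), both on log axes with rank 1 strongest, for genes with a summit in both lists. Dotted lines mark rank 970. The IDR genes (fars-1, ears-2, mars-1 and kars-1) lie inside rank 970 in both replicates, rars-1 lies just outside in both, and the other 5 named genes have ranks beyond 2000 in both.

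Taking all lists together, 21 of 31 synthetase genes (67.7%) had a summit in at least 1 list, against 52.7% of all protein-coding genes. These were 16 of 20 ars-1 genes (80.0%) and 5 of 11 ars-2 genes (45.5%). There were 6 genes in replicate 1 but not in replicate 2, and 5 in replicate 2 but not in replicate 1. Besides nars-1 and pars-2 they were gars-1, hars-1, pars-1, sars-2 and yars-1 in replicate 1, with signals of 9.65 to 13.9, and lars-1, lars-2, sars-1 and wars-1 in replicate 2, with signals of 8.92 to 14.9. No list had a summit in the promoters of cars-1, dars-1, ears-1 or iars-1, nor of aars-2, dars-2, fars-2, iars-2, rars-2 or yars-2. A region absent from a list of this kind does not show that the promoter was unbound.

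For the 11 amino acids with genes of both kinds, the IDR list had a summit at both promoters for 0, at the ars-1 gene alone for 1 (fars-1), at the ars-2 gene alone for 1 (ears-2) and at neither for 9. In the pooled list the same counts were 0, 4, 2 and 5, and for genes in both replicate lists 0, 3, 2 and 6. The replicate 1 list alone had summits at both genes for 1 amino acid, asparagine (nars-1 and nars-2), and the replicate 2 list alone for 1, leucine (lars-1 and lars-2). No share over other gene pairs was computed. Of all protein-coding genes, 4.66% had an IDR summit, 18.4% a pooled summit and 21.7% a summit in both replicate lists. With so few genes called among 11 pairs, the counts of 0 do not show that a summit at 1 gene excludes the other. For glutamate the ars-2 gene had the IDR summit while ears-1 had none in any list, its nearest IDR summit being 145270 bp away.

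Most synthetase genes had no IDR summit near a start, and the same holds for protein-coding genes at large. With a promoter of 2000 bp upstream, 5 of 31 synthetase genes had an IDR summit, against 6.06% of all protein-coding genes. Distances over all genes were not computed. For the 27 genes with none in the promoter, the nearest IDR summit was between 1796 and 234857 bp from a start, with a median of 34247 bp. Of these 2 were within 2000 bp, iars-2 at 1796 bp and sars-2 at 1871 bp, and 2 more were within 5000 bp, aars-2 at 4112 bp and lars-1 at 4651 bp. Most of the promoters without an IDR summit thus had none a short way outside the window either.

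All 4 IDR summits of synthetase genes also lay in the promoter of another gene, against 56.0% of all 940 pairs of a protein-coding gene and an IDR region with its summit in that gene's promoter. The synthetase start was the nearest start in 3 of 4 cases, and over all such pairs the gene counted was the nearest in 71.0%. The median distance from summit to start was 368.5 bp for the 4 synthetase genes and 251 bp over all pairs. In the pooled list 8 of 10 synthetase summits lay in another promoter too, against 37.1% of all 3978 pairs of the pooled list. The promoters of 18 of 31 (58.1%) overlapped that of another protein-coding gene, against 36.3% of all protein-coding genes and 66.6% of genes with an IDR summit. The part of this overlap in the counts was not tested, and which gene of a pair a shared summit serves cannot be told from the lists.

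The summits were not next to tRNA genes, the partners of these enzymes. A summit counted here lies near a synthetase start, so its distance to a tRNA gene reflects where the synthetase gene lies. From the starts of kars-1, mars-1, ears-2 and fars-1 the nearest tRNA gene was 69071, 85662, 67765 and 49952 bp away. Such distances were not computed for all IDR summits, and nothing about binding is drawn from them. The nearest tRNA gene was 69490 bp from the summit of kars-1, 85344 bp from that of mars-1, 67781 bp from that of ears-2 and 51286 bp from that of fars-1. Over the 9 genes with a pooled summit it was at most 376894 bp away, for rars-1. The nearest small nucleolar RNA gene was 1170 bp from the nars-1 summit and 2726 bp from the fars-1 summit, and between 16881 and 443053 bp away for the other 7.

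There were 6 short motifs, searched on both strands in 300 bp centred on each summit. AGGTCA is the core recognised by many nuclear receptors, and TTGCATCA an element of C/EBP and ATF dimers. CACGTG is the E-box, to which bHLH factors bind. TGACTCA is a bZIP site, and TATAAA is the TATA box. The repeat GAGAGA was the last of the 6, and none of them contains another. The shares are given for the 970 IDR windows and then for the 19973 promoters of the same length, 250 bp upstream to 50 bp downstream. GAGAGA was in 51.8% of IDR windows and 21.8% of promoters. AGGTCA was in 5.57% of IDR windows and 8.27% of promoters, and TATAAA in 23.6% and 37.9%. The E-box was in 8.35% of IDR windows and 5.82% of promoters, the C/EBP and ATF element in 2.16% and 1.20%, and the bZIP site in 3.40% and 3.62%. No motif of the 6 was in the windows of kars-1, mars-1 or ears-2. The fars-1 window had TATAAA at 2 places, the rars-1 window GAGAGA once, 74 bp upstream of the summit, and the aars-1 window GAGAGA at 3 places, the nearest 12 bp upstream of the summit. GAGAGA, which was in more IDR windows than promoters, was thus in 0 of the 4 IDR windows of synthetase genes. The absence of these letters says nothing of which factor was bound. The GC content of the 300 bp windows was 30.0% for mars-1, 33.7% for kars-1, 35.7% for fars-1 and 37.7% for ears-2, all below the median of all IDR windows, 40.7% (quartiles 35.3 and 46.0).

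A list of 21 genes around tRNA charging was set beside the synthetases. It was chosen by gene name, with earlier results of these data known. In the IDR list 7 of the 21 had a promoter summit, against 4.66% of all protein-coding genes, and in the pooled list 13, against 18.4%. All 6 elongation factor genes were among the 7. Elongation factor 1A, which brings charged tRNAs to the ribosome, is encoded by eef-1A.1 (IDR signal 241.6, rank 26) and eef-1A.2 (174, rank 56). Its exchange factor subunits had signals of 141 for eef-1G, 67.5 for eef-1B.1 and 62.8 for eef-1B.2, and eef-2, the translocation factor, had 124. The strongest synthetase, kars-1 at 81.4, was below 4 of these 6 genes and above eef-1B.1 and eef-1B.2.

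Genes that respond to uncharged tRNA were next. The kinase gcn-2 is activated by uncharged tRNA and gcn-1 is its partner; atf-4 is a transcription factor downstream whose mammalian counterpart raises synthetase genes. Only atf-4 of these 3 had an IDR summit (signal 56.1, rank 865, 193 bp upstream), against 4.66% of all protein-coding genes. The gcn-2 promoter had a pooled signal of 47.0 (rank 1215) and that of gcn-1 34.9 (rank 2298), in the range of rars-1, nars-1 and vars-1. Both had summits in both replicate lists.

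Of 10 genes for tRNA processing, modification or export, 0 had an IDR summit, against 4.66% of all protein-coding genes. A pooled summit was present for 2 of the 10, against 18.4% of all genes. These were elpc-4 (42.7, a subunit of the Elongator complex) and rtcb-1 (32.5, the tRNA ligase of splicing). Neither count sets these 10 genes apart from all genes. The synthetase genes fars-3 and glp-4, outside the naming rule, had pooled but no IDR summits. These were fars-3 (31.2, rank 3105), for the other subunit of phenylalanyl-tRNA synthetase, and glp-4 (25.5, rank 5781), for a valyl-tRNA synthetase. The fars-3 summit, 397 bp upstream of its start, was weaker than the one counted for its partner fars-1 in the pooled list, 31.2 against 68.3. The latter lay 865 bp from fars-1 but 177 bp from rbm-5, so the values do not rank the subunit genes by binding. The promoters of nhr-237 itself and of unc-119, the marker gene of the strain, had been chosen as positive checks. Neither had an IDR or pooled summit, so these checks gave no positive result, and the reason was not tested. The nhr-237 promoter had no summit in any list. That of unc-119 had a weak region in replicate 1 alone (11.7, rank 12236).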

How the data were processed

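ChIP-seq regions of eGFP-tagged NHR-237 were taken from the 4 deposited ce11 lists. The deposited readme files say that control reads were used in making the replicate and pooled lists, and that the IDR list came from those lists. No source used here names the aligner, the peak caller, their settings or the IDR threshold. The signal value of a region is a score given by the authors' peak caller, of unstated scale, and was used only to rank or describe regions within a list. A deposited column holds −log10 of the q-value, which was printed but not tested. Lists on ce10 were not used, because no annotation of that build was at hand and no coordinates were converted.

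Summits were the region start plus the offset in the file, counted from 1. Genes came from Ensembl release 115 of WBcel235, bases and product names from RefSeq. Promoters ran from 1000 bp upstream to 200 bp downstream of any transcript start of a protein-coding gene. Every gene of the naming rule could be named, with those having an IDR summit described in most detail. The motif list, the related genes and the members were chosen with earlier results of these data known. Class 1 or 2 came from textbook knowledge. There was 1 group, so no test between samples was made, and 95% exact Clopper-Pearson intervals of shares cover only counting error. Read depth is unknown. Counting was tested on simulated regions of known position. Alternatives were other windows, starts, list lengths and gene groupings, and each replicate left out. Python 3.11.15, numpy 2.4.6, pandas 2.3.3, scipy 1.17.1 and matplotlib 3.10.9 were used.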

Additional observations from a re-analysis of the deposited data

How the results depend on the processing

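Of 43 alternatives, 37 gave a value within 1.5 times the one reported, among them the median rank of the 4 IDR regions by the −log10 q column (440, against 512.5 by signal). Counts were compared as such, even where the size of the group changed. The count of IDR genes with AGGTCA within 100 bp, also among the 37, could not differ. It was already 0 within 300 bp. Leaving out a replicate, by using the 970 strongest regions of the other, gave 4 to 5 synthetase genes in place of the IDR count, 3 to 4 ars-1 genes and 1 ars-2 gene either way. The other 6 moved further. With the stronger part of the IDR list alone (485 regions) the count of synthetase genes was 2, kars-1 and mars-1, and that of ars-2 genes 0, while the share of all protein-coding genes was 2.55%, against 4.66% with the whole list. Grouped by RefSeq product name, 1 of 10 cytoplasmic genes had an IDR summit (mars-1). The mitochondrial count of this grouping, 1 of 4 genes (ears-2), was among the 37. The mitochondrial share was thus the higher, the reverse of the order of ars-1 over ars-2 genes, with overlapping intervals. A promoter of 2000 bp upstream gave 2 ars-2 genes, ears-2 and iars-2 (all genes 6.06%). The count in both replicate lists was 6 with 500 bp upstream to 100 bp downstream (all genes 13.6%) and 6 with the stronger part of each list (12.6%), against 10 (21.7%) as reported. No cause of these changes was tested. With nearest starts only, fars-1 was lost and the IDR count was 3 (all genes 3.30%). No paired analysis was possible because there was 1 group.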

Other observations

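Both of the following words were noticed in the printed sequences after these had been seen, so their counts describe the data and support nothing. TTGCGAA occurred in the 300 bp windows of 3 of the 9 synthetase genes with a pooled summit, with 2 matches in ears-2 and 1 each in mars-1 and rars-1. It was in 11.0% of the 970 IDR windows and in 5.26% of the promoters of all protein-coding genes, counting both strands. GCGCG occurred in the windows of 5 of the 9, with 5 matches in ears-2, 5 in rars-1, 2 in kars-1, 2 in pars-2 and 1 in fars-1, with overlapping matches counted. It was in 45.7% of the IDR windows and 14.1% of all promoters.

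Among genes that RefSeq product names call synthetases but that the naming rule leaves out, prx-10 and Y105E8A.20 had a summit in the replicate 2 list alone, with signals of 13.3 and 19.1, and K03B4.1 had none in any list.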
